A study of Mus musculus with 9 samples.

Results

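The genes described here encode the protein subunits of the mitochondrial ribosome and the translocases that carry proteins across the outer and inner mitochondrial membranes. They were chosen by gene symbol alone (Mrpl or Mrps followed by a digit, Timm or Tomm), and the rule found 64 of the 8146 genes that the platform table names, measured by 79 cDNA clones. Of these, 34 belonged to the large ribosomal subunit, 13 to the small subunit, 11 to the inner membrane translocases and 6 to the outer membrane translocase. All 64 had enough values to be compared, among 8106 genes tested. A further 3 clones, which carry the symbol of Mrpl4 or Mrps6 together with that of another gene, were left out.

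Stroma was laser capture microdissected from prostates of male FVB mice that were hemizygous for the CR2-TAg transgene, in which cryptidin-2 (Defcr2) regulatory elements direct the SV40 large T antigen to neuroendocrine cells of the prostate. The invasive group held 6 mice of 24 weeks of age with invasive, metastatic prostate cancer. The PIN group held 3 mice of 10 weeks with prostate intraepithelial neoplasia, the lesion that precedes invasion; the array of a further PIN mouse was not analysed here. Every mouse of both groups carried the transgene, 1 array was run for each mouse, and age and stage changed together, so their effects cannot be told apart. Each value is a log2 ratio of the sample (Cy5) over a pool of the RNA of 4 PIN mice (Cy3), so that 0 marks the pool, to which each PIN mouse had itself contributed. A difference is the invasive mean minus the PIN mean, tested with limma at the false discovery rate of 15% that the study used.

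A ratio gives no level, so the stromal identity of the samples could be read only from shifts in marker genes. Here rose and fell mean passing at an adjusted p under 0.15, as 3.75% (higher) and 1.89% (lower) of all genes tested did. All 5 macrophage markers and 5 of 10 fibroblast markers measured rose, whereas 3 of 5 smooth muscle markers fell, with median differences of 2.18, 1.19 and -1.93. The 3 were Myh11, Myl9 and Mylk, and 2 of 4 skeletal muscle markers, Eno3 and Pygm, fell as well. Of markers of other cells that a dissected field can hold, 2 of 6 endothelial, 2 of 5 adipocyte, 1 of 10 epithelial and 1 of 7 neuroendocrine genes rose, as did 6 of 13 proliferation genes. In sign, all 10 fibroblast, all 6 endothelial, all 13 proliferation, 6 of 7 neuroendocrine and 4 of 5 adipocyte genes were higher. The epithelial list leaned the other way from its 1 riser, Krt7 (1.12), with 7 of 10 genes lower in sign and a median difference of -0.40. That lean depended on PIN replicate 4, where the epithelial median was 0.59. On PIN replicates 2 and 3 it was -0.99 and -0.61, within the -1.10 to -0.06 of the invasive arrays. Invasive replicate 3 stood apart from the other invasive arrays, with the lowest macrophage median (0.61 against 2.43 to 2.80) and the highest proliferation median (2.02 against 0.30 to 1.10), and PIN replicate 4 correlated with the other PIN arrays at an r of only 0.18 and 0.19 across genes. The part of these shifts in the values below was not tested, and in bulk RNA fewer cells of a type and less RNA per cell cannot be told apart.

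Mitochondria keep a ribosome of their own, which translates the few messages of the mitochondrial genome into core subunits of the respiratory chain and ATP synthase, while its protein subunits are all encoded in the nucleus. Those subunits, like nearly all other mitochondrial proteins, are made in the cytosol, enter through the pore and receptors of the outer membrane (Tomm proteins) and are passed on by the inner membrane translocases and small chaperones of the intermembrane space (Timm proteins). The number of mitochondria and the demand for respiration differ widely between cell types, muscle being rich in both.

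The promoters of 6 of these genes are printed: 5 whose invasive and PIN arrays did not overlap and Mrps18a, which had the largest difference. Among all genes tested, 2.99% had every invasive array below every PIN array and 4.86% every one above. Each line holds the 100 bases before the annotated start, 5′ to 3′ on the strand of the gene, from RefSeq on build GRCm38.p6. Capitals mark a match, on either strand, to a motif that was searched (an ETS core in Mrps18a, a CCAAT box read on the other strand in Mrps10).
Mrps10 (chr17:47369097-47369196, + strand): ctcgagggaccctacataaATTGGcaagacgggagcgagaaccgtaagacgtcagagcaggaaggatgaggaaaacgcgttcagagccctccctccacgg
Timm44 (chr8:4275906-4276005, - strand): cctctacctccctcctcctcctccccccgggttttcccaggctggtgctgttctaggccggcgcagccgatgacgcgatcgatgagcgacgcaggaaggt
Mrpl30 (chr1:37890377-37890476, + strand): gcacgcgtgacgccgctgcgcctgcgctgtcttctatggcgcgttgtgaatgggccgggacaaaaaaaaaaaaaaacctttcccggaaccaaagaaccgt
Mrpl24 (chr3:87919444-87919543, + strand): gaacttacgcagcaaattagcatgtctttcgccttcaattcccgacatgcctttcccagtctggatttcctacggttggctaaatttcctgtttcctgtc
Mrps11 (chr7:78783031-78783130, + strand): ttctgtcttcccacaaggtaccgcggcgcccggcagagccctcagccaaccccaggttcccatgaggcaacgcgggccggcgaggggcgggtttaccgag
Mrps18a (chr17:46110904-46111003, + strand): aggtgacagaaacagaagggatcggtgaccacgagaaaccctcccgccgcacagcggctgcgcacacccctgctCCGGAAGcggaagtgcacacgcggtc

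Between PIN and invasive stroma the genes of the mitochondrial ribosome and import machinery differed little. With limma, 0 of the 64 passed in either direction at an adjusted p under 0.15, against 5.64% of all genes tested (3.75% higher and 1.89% lower in invasive stroma), and the smallest adjusted p was 0.213, for Mrps10. At an unadjusted p under 0.05, 1 was higher (9.18% of all genes) and 5 were lower (5.8% of all genes). The t-test of the study's methods, which called 54 of the 8106 genes, also gave 0, whereas a t-test with unequal variances (Welch), which called 207 (2.55%), gave 3. In sign, 41 were lower (64.1%, against 48.0% of all genes) and 23 higher in invasive stroma. The median difference over the 64 was -0.10, beside 0.02 over all genes tested.

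Most of these differences were bounded within 2-fold. All but 1 gene differed by less than 1.5-fold (98.4%, against 84.9% of all genes), and for 62 of 64 the 95% interval of the difference lay within 2-fold either way (96.9%, against 73.0% of all genes). The exceptions were Mrps18a, with an interval of -1.48 to 0.01, and Mrps18b, with -1.04 to 0.07. For the 13 genes with more than 1 clone, these intervals are for means over clones. Each of the other genes rests on 1 clone, among them Mrps10, Timm44, Mrpl30, Mrpl24, Mrps11 and Mrps18a. Single clones of Tomm20 (-0.78) and Tomm70a (-0.74) lay further from 0 than the means of those genes. The median SD between mice was 0.27 over the invasive arrays (0.344 over all genes) and 0.229 over the PIN arrays (0.279 over all genes). The number of arrays limits the precision.

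**Figure D1:**
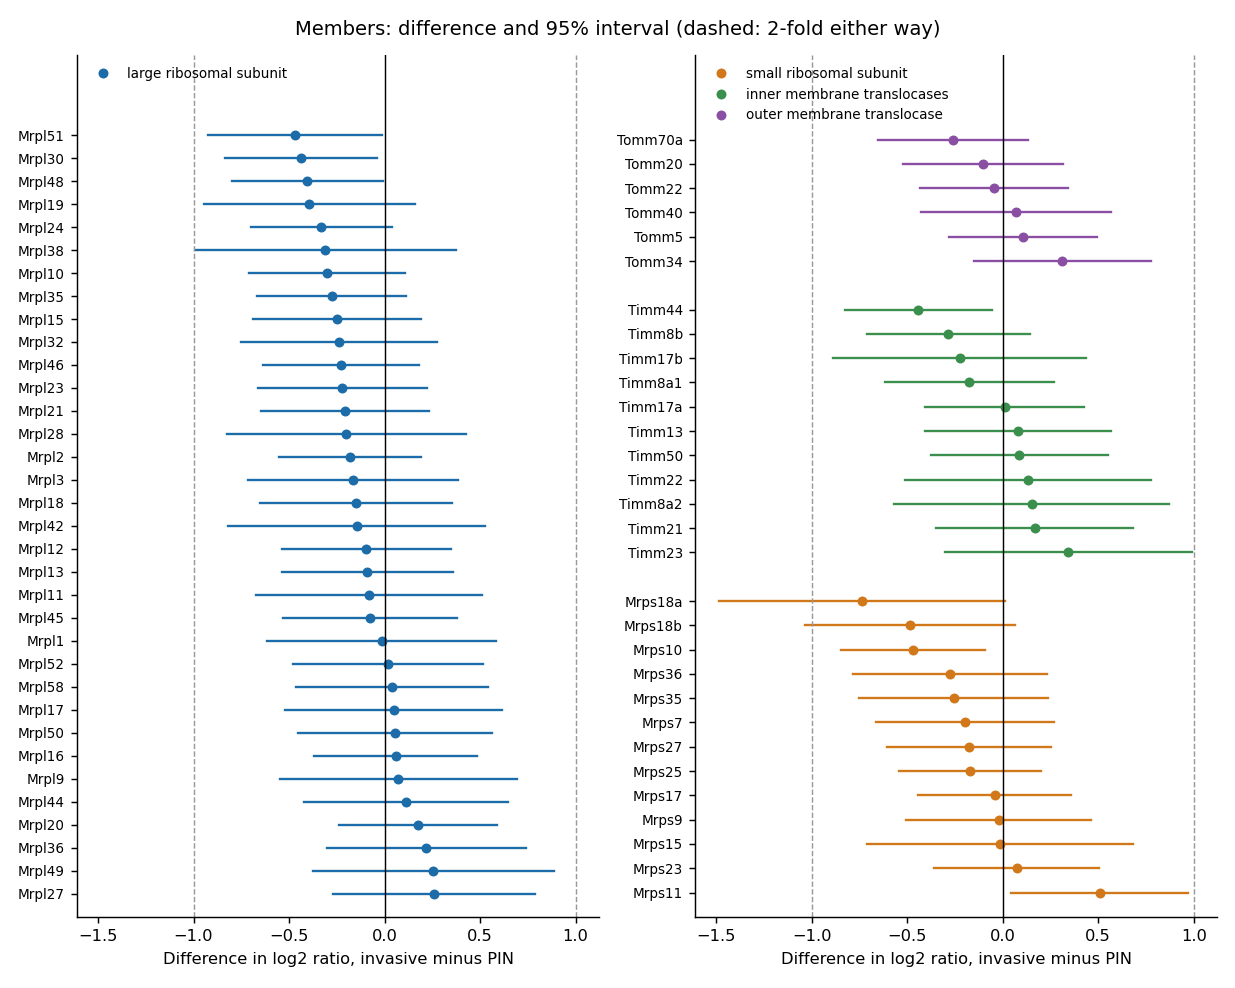
Difference in log2 ratio between invasive and PIN stroma for each of the 64 genes (points) with its 95% interval from limma (lines), grouped by role, with dashed lines at 2-fold either way. The points lie between -0.74 (Mrps18a) and 0.51 (Mrps11), and 6 intervals exclude 0.

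Groups of arrays that did not overlap were found for 5 genes, a share that over both directions together was close to that of all genes tested. Every invasive array lay below every PIN array for 4 genes, Mrps10, Timm44, Mrpl30 and Mrpl24, where 2.99% of all genes tested did so, and above every PIN array for 1 gene, Mrps11, against 4.86% of all genes.

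In the large subunit, 23 of 34 genes were lower and 11 higher in sign, with a median difference of -0.15 and a range of -0.47 to 0.26. Mrpl30, a subunit of the large ribosomal particle, read -0.23, -0.33, -0.46, -0.52, -0.57 and -0.83 in the 6 invasive samples, and in PIN stroma 0.0014, -0.08 and -0.07. The groups did not overlap, and all 3 PIN arrays sat near the pool. The difference was -0.44 ± 0.18 (SE, limma adjusted p = 0.279), or 1.35-fold. Mrpl24 separated the groups by a smaller step, from -0.38 to -0.01 in invasive stroma and from 0.12 to 0.26 in PIN stroma, with a difference of -0.33 ± 0.17 (SE, limma adjusted p = 0.390).

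Mrpl51 and Mrpl48, both also large subunit proteins, differed by about as much but overlapped between groups. Mrpl51 read -0.69, -0.54, -0.01, -0.37, -0.67 and -0.38 in invasive stroma and 0.13, -0.29 and 0.23 in PIN stroma. PIN replicate 3 (-0.29) lay below invasive replicate 3, the array that stood apart, and above the other invasive arrays. Its difference was -0.47 ± 0.21 (SE, limma adjusted p = 0.317) with all arrays and -0.56 without that array, when it passed with an adjusted p of 0.141. Its adjusted p reached 0.603 when another array was left out, it was 0.0296 against the pool alone, a comparison that leaves out the PIN spread, and it lay between 0.17 and 0.756 under the 13 other settings (tests, normalisations, clone summaries, filter and subsets of arrays). Mrpl48 was measured by 2 clones that gave nearly the same difference, -0.41 and -0.40.

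Among the remaining large subunit genes named by rank, Mrpl10, which anchors the stalk that recruits translation factors, differed by -0.30. Those with the largest higher values, Mrpl27 (0.26), Mrpl49 (0.25) and Mrpl36 (0.22), had arrays of both groups on either side of the pool. In Mrpl49, the invasive arrays ran from -0.31 to 1.03, a wider range than the -0.28 to 0.24 of the PIN arrays. None of these differences passed the test.

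The genes with small subunit symbols held both ends of the range. Of these 13, 11 were lower and 2 higher in sign, with a median of -0.18, and Mrps18a and Mrps36, described last, are known to act outside the small particle. Mrps10, a subunit of the small particle, was the most uniform of the invasive readings, at -0.33, -0.43, -0.41, -0.52, -0.32 and -0.41, against -0.13, -0.01 and 0.34 on the PIN arrays. The invasive arrays spanned a narrow band (mean -0.40 ± 0.075, SD over 6 arrays) below all PIN arrays (0.07 ± 0.24, SD over 3 arrays). The difference of -0.47 ± 0.17 (SE), 1.39-fold, had a 95% interval of -0.85 to -0.09 and a limma adjusted p of 0.213.

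Mrps11, whose product is also part of the small particle, ran the other way and was the only gene of the 64 with every invasive array above 0. It read 0.01, 0.64, 0.22, 0.63, 0.02 and 0.50 in invasive stroma and -0.12, -0.39 and -0.01 in PIN stroma. The groups did not overlap, but invasive replicates 1 and 5 lay just above PIN replicate 4. The difference was 0.51 ± 0.21 (SE, limma adjusted p = 0.282), 1.42-fold, with a 95% interval of 0.05 to 0.97.

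Mrps18a, which is named for the small subunit although its protein sits in the large particle, had the largest difference, -0.74 ± 0.34 (SE, limma adjusted p = 0.341), or 1.67-fold. Its invasive arrays read -0.42, -0.74, 0.15, -0.74, -0.70 and -1.77 and its PIN arrays -0.13, -0.26 and 0.49. Invasive replicate 3 was the only invasive array above the pool and replicate 6 lay furthest below it. Without replicate 3 the difference was -0.91 (limma adjusted p = 0.126), and without PIN replicate 4 it was -0.51, while its adjusted p was 0.0367 against the pool alone and ran from 0.151 to 0.697 over the same 13 settings. Its relative Mrps18b, at -0.48 ± 0.25 (SE, limma adjusted p = 0.401), had its lowest value, -0.94, on invasive replicate 3, where Mrps18a had its highest value among the invasive arrays.

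Mrps36 has a ribosomal symbol, but its product is known as a part of the oxoglutarate dehydrogenase complex of the citric acid cycle. Its difference was -0.28, and invasive replicate 3 (0.22) lay above all 3 PIN arrays while the other 5 ranged from -0.91 to -0.25. The groups overlapped.

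**Figure D2:**
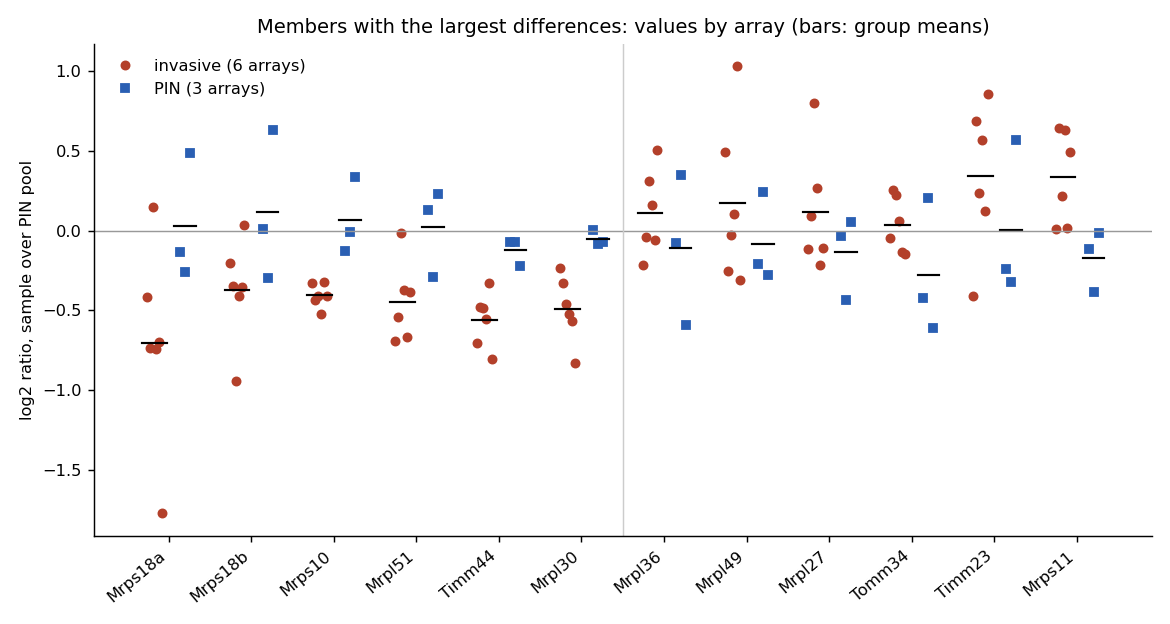
Log2 ratio of sample over PIN pool on each array for the 6 genes with the largest lower and the 6 with the largest higher difference (red circles, 6 invasive arrays; blue squares, 3 PIN arrays; bars, group means). The groups are separate for Mrps10, Timm44, Mrpl30 and Mrps11 and overlap for the other 8.

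The inner membrane genes differed from the ribosomal genes in sign, with 7 of 11 higher, 4 lower and a median of 0.08; that contrast was not tested. Timm44, which tethers the import motor's Hsp70 to the channel, was the clearest exception. It read -0.71, -0.48, -0.48, -0.55, -0.33 and -0.81 in invasive stroma and -0.07, -0.07 and -0.22 in PIN stroma. All 9 arrays lay below the pool and the groups did not overlap. The difference was -0.44 ± 0.18 (SE, limma adjusted p = 0.251), with a 95% interval of -0.82 to -0.06.

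Timm23, the channel that Timm44 serves, stood at the other end. It read -0.41, 0.69, 0.24, 0.57, 0.12 and 0.86 in invasive stroma and -0.24, -0.32 and 0.57 in PIN stroma. The groups overlapped widely, and the difference of 0.34 ± 0.30 (SE, limma adjusted p = 0.661) had an interval that reached 0.99. The channel's other subunits gave -0.23 for Timm17b and 0.01 for Timm17a, 2 similar genes that cDNA clones may not separate. Timm17b rested on 1 array, since PIN replicate 4 read 1.26 and without it the difference became 0.18.

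The small chaperones of the intermembrane space, which shield membrane proteins on their way to the inner membrane, gave differences from -0.28 (Timm8b) to 0.15 (Timm8a2), with Timm8a1 at -0.17 and Timm13 at 0.08. Timm22, the channel for carrier proteins, differed by 0.13, and Timm50, the receptor that faces the intermembrane space, by 0.09. None was separated by group.

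In the outer membrane translocase, 3 genes were higher and 3 lower, with a median of 0.01 and the narrowest range of the roles, -0.26 to 0.31. Tomm40, the pore, differed by 0.07, and its small partner Tomm5 by 0.11. Tomm22, the central receptor, differed by -0.05. Tomm34, a cytosolic co-chaperone that delivers precursors, differed most upward, at 0.31 ± 0.21 (SE, limma adjusted p = 0.547), yet PIN replicate 3 (0.21) exceeded 4 of the 6 invasive arrays.

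Both receptors for incoming precursors, Tomm20 and Tomm70a, depended on the clone. The 4 clones of Tomm20 gave differences of -0.78, -0.07, 0.17 and 0.27, a gap of 1.05 on the log2 scale, and their mean was -0.10. The 2 clones of Tomm70a gave -0.74 and 0.22, with a mean of -0.26 (limma adjusted p = 0.549). Tested by clone over all 17207 clones with values, 371 passed, and none of the 79 clones of these genes was among them. The smallest adjusted p of a clone was 0.206, for the lower clone of Tomm70a. Over the 13 genes with more than 1 clone the median gap was 0.193, and clones of 5 genes had opposite signs, of which Tomm20 alone had a gap over 1.

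By array, the 64 genes together lay slightly below the pool in 5 of the 6 invasive samples. Their median log2 ratio was -0.21, -0.17, -0.01, -0.21, -0.27 and -0.24 on invasive replicates 1 to 6, and -0.03, -0.16 and 0.01 on PIN replicates 2 to 4. Invasive replicate 3 fell among the PIN arrays, and PIN replicate 3 lay at about the level of invasive replicate 2, so the groups overlapped. On invasive replicate 3, 33 of the 64 were below 0, against 41 to 51 on the other invasive arrays and 29 to 49 in PIN stroma. The smooth muscle median on the same array was also nearest to the pool of all invasive arrays, at -0.25 against -0.90 to -3.91, the PIN arrays lying between -0.58 and 0.40.

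All 6 invasive arrays were below 0 for 14 of the 64 genes, and all 3 PIN arrays for 10, against 10.4% and 11.0% of all genes. Timm44, Tomm70a and Mrpl2 were in both sets. Between arrays of the different groups the values of all genes correlated positively (r of 0.218 to 0.529), and all arrays share the pool and the dye orientation, so a value below 0 need not be a difference between stages. Read against the pool in place of the PIN arrays, which leaves out the spread of PIN stroma, 20 of the 64 were lower and 1 higher at a limma adjusted p under 0.15, beside 14.6% and 17.5% of all genes. Mrpl58, a hydrolase that frees stalled mitochondrial ribosomes, shows how the readings part. Its invasive mean was -0.44 against the pool (limma adjusted p = 0.0546), but its PIN mean was -0.48 and the difference 0.04.

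**Figure D3:**
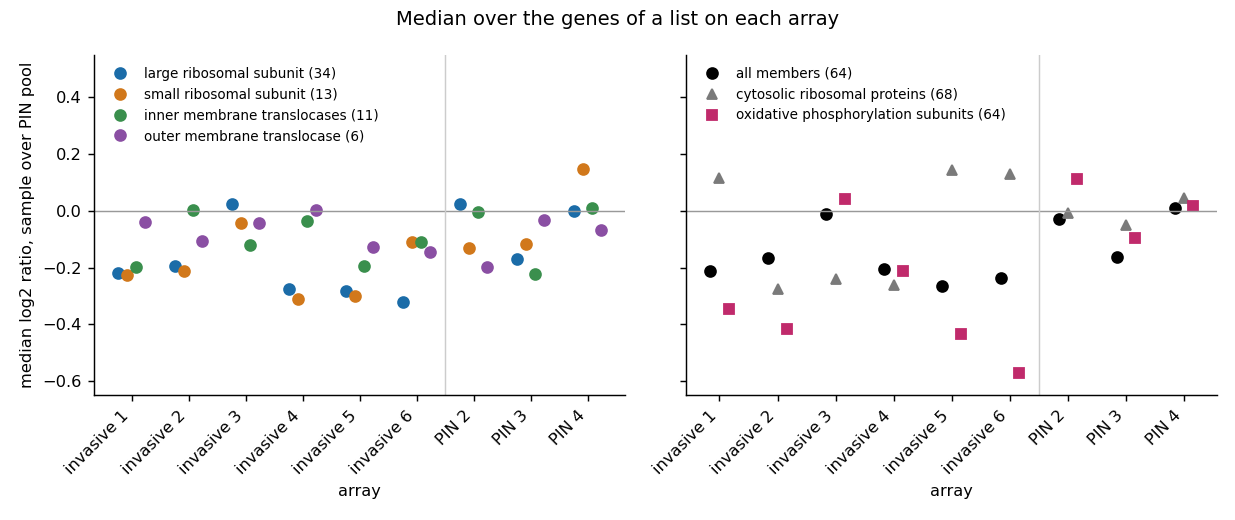
Median log2 ratio of sample over PIN pool on each array for the 4 roles (left) and for all 64 genes beside cytosolic ribosomal proteins and oxidative phosphorylation genes (right), with gene numbers in brackets. The median of the 64 genes lies between -0.27 and -0.17 on 5 invasive arrays and at -0.01 on invasive replicate 3; the oxidative phosphorylation median is also highest there among invasive arrays, at 0.04.

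Cytosolic ribosomal proteins, which translate the nuclear messages, gave a similar count, with 0 of 68 passing and 43 lower in sign. Their median was -0.05, but by array it followed another course, at 0.11, 0.14 and 0.13 on invasive replicates 1, 5 and 6 and from -0.28 to -0.24 on the other 3. Genes of the respiratory chain and ATP synthase, whose mitochondrially encoded partners the mitochondrial ribosome makes, were further from 0. Of 64 such genes, 4 assembly factors included, 57 were lower in sign (89.1%, against 48.0% of all genes), with a median of -0.36. In 10, every invasive array lay below every PIN array, where 2.99% of all genes tested did so. The 4 that fell (6.25%, against 1.89% of all genes) were Cox6c (-0.98), Ndufs7 (-0.77), Uqcr11 (-0.67) and Ndufv1 (-0.63). Over the whole list the array medians were -0.35, -0.42, 0.04, -0.21, -0.43 and -0.57 in invasive stroma, again nearest to the pool on replicate 3. The distance between these lists and the 64 genes was not tested.

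**Figure D4:**
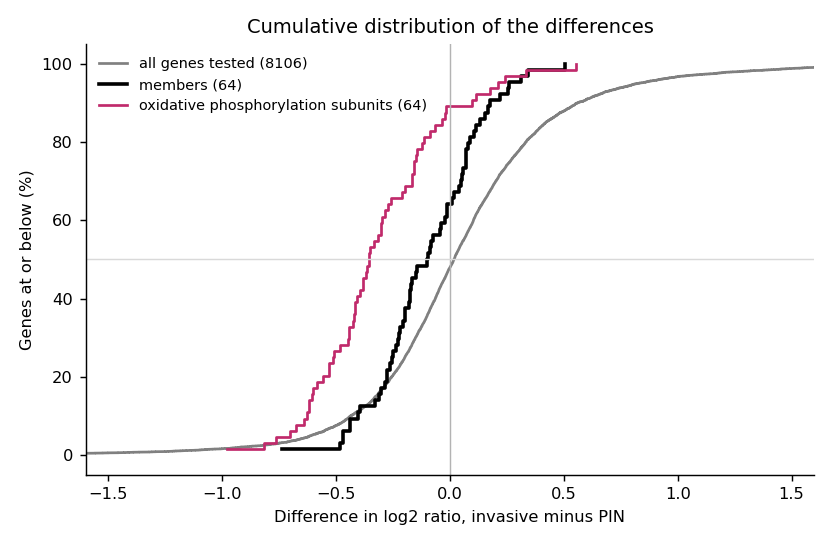
Cumulative share of genes (percent) at or below each difference in log2 ratio, invasive minus PIN, for the 64 genes (black), oxidative phosphorylation genes (magenta) and all 8106 genes tested (gray). The black curve is steeper than the gray one and crosses 50% at -0.10, while the magenta curve crosses it at -0.36.

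Other genes of mitochondrial translation and import were listed by function. Of 17 chaperones, motor subunits and proteases of import that were measured (28 listed), 0 passed and 14 were lower in sign, with a median of -0.12. The smallest p values were those of Oxa1l, which inserts proteins into the inner membrane, with a difference of -0.62 ± 0.22 (SE, limma adjusted p = 0.190), and Grpel2, a nucleotide exchange factor of the motor, at 0.49. Of 16 translation and assembly factors (27 listed), 0 passed and 12 were lower. The smallest p values were those of Mterf4, an assembly factor of the large subunit, at -0.41, and of the initiation factor Mtif2, at 0.46. Of 11 mitochondrial tRNA synthetases (21 listed), 0 passed and 7 were lower, and the smallest p values were those of Kars (-0.54), which also makes the cytosolic enzyme, and Tars2 (-0.42). Dap3, a small subunit protein without an Mrps symbol, gave -0.46 ± 0.22 (SE, limma adjusted p = 0.351), and Gadd45gip1, a large subunit protein, gave 0.01.

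Among 12 measured regulators of mitochondrial transcription and biogenesis (15 listed), 1 fell (8.33%, against 1.89% of all genes) and 0 rose (against 3.75%). In sign, 7 were lower and 5 higher. Ppargc1b, a coactivator that promotes mitochondrial biogenesis, read -0.82, -1.26, -0.69, -0.93, -1.08 and -1.73 in invasive stroma and 0.44, 0.15 and -0.85 in PIN stroma. All invasive arrays were well below the pool, and PIN replicate 4, the array that stood apart, lay among them. The difference was -0.998 ± 0.301 (SE, limma adjusted p = 0.134), 2.00-fold. Ppargc1a ran the other way, at 0.46 ± 0.20 (SE, limma adjusted p = 0.304), and Esrra was lower, at -0.51 ± 0.22 (SE, limma adjusted p = 0.309).

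Promoters were searched for motifs of factors known to act on mitochondrial and housekeeping genes, which the choice by symbol had not used. Of the 64 genes, 58 had a promoter in the RefSeq table, 65 promoters in all, each running from 250 bases before to 50 after the start. Mrpl13, Mrpl15, Mrpl19, Mrpl38, Mrps35 and Timm21 had none there. The ETS core CCGGAAG, bound by GABPA, occurred on either strand in 19 of the 58 (32.8%), against 19.7% of the 6587 array genes with a promoter. The NRF1 core CGCATGCG occurred in 6 (10.3%, against 4.36%) and the YY1 core AAGATGGCG in 7 (12.1%, against 3.64%). Counted by promoter, the ETS core was in 30.8% of the 65, against 8.86% of all promoters. By the same count NRF1 was in 9.23% against 1.87%, and YY1 in 10.8% against 1.40%. Any of the 3 cores was present in 28 genes. The share over array genes was 25.6%.

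Of the other motifs, the CCAAT box (CCAAT) occurred in 37.9% against 43.2% of array genes, the E-box CACGTG in 8.62% against 12.3% and the TATA box TATAAA in 10.3% against 9.84%. The median GC content was 58.0%, against 60.7% for array genes and 52.7% for all promoters. The median number of CG dinucleotides was 20, against 20 for array genes and 7 for all promoters. Each of the ETS, NRF1 and YY1 cores holds a CG, so the shares over all promoters compare promoters of unlike composition. The median difference of the genes was -0.15 with and -0.08 without an ETS core, -0.10 and -0.09 for NRF1, and -0.15 and -0.08 for YY1. Of the promoters printed in part, that of Mrps18a held an ETS core in the printed stretch and a YY1 core outside it. That of Mrps11 held a YY1 core outside the printed stretch, and those of Mrps10, Timm44, Mrpl30 and Mrpl24 none of the 3. A match is a stretch of letters and does not show binding.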

How the data were processed

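RNA of laser capture microdissected stroma was amplified, labelled with Cy5 and hybridised with the Cy3-labelled PIN pool on spotted cDNA arrays. The authors left the background in place and applied lowess within each print-tip group of an array, and deposited the result as log2 ratios (sample over pool). The dyes were not swapped. Values numbered 17189 to 17206 per array, with medians of -0.0034 to 0.008; spot intensities were not used. Of 17664 rows, 12563 carried 1 gene symbol in the platform annotation, 412 several and 4689 none; only the first were used, with a mean per array over clones that share a symbol. A gene entered the comparison when 4 or more invasive and 2 or more PIN arrays held a value, and was fitted in limma 3.58.1 (R 4.3.3; lmFit and eBayes, two-sided, Benjamini-Hochberg over all genes), with 0.15 as the limit of the adjusted p. The procedure was run on simulated data with changes larger than any difference of the mitochondrial ribosome and import genes. Recovery of smaller differences was not tested. Promoters, motif counts and figures were handled in Python 3.11.15. P-values measure the spread between single mice.

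The members, gene lists, motifs and tests were chosen with earlier results of these data known. Named genes were the 6 with the largest difference each way, up to 5 of smallest p per role, those with discordant clones, and 2 genes per pathway list or those that passed; Mrpl2, Mrpl19, Mrpl58, Timm13, Timm17a, Timm22, Timm50, Timm8a2, Tomm22, the muscle markers and the 4 oxidative phosphorylation genes were named after their values were seen. Alternatives were t-tests with equal and unequal variances, robust empirical Bayes, array weights, 3 normalisations between arrays, a filter for complete values, other summaries of clones, the pool as the comparison, a stricter threshold of 0.05, a replicate block and leaving out each array. Replicate numbers name different mice. Deviations of same-numbered arrays correlated at -0.086, -0.1 and -0.019, so the numbers were not treated as pairs.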

Additional observations from a re-analysis of the deposited data

Results flagged for a closer look

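The median over the 34 large subunit genes had 1 array apart from the rest of its group. On invasive replicate 3 it was 0.0233, whereas the nearest invasive array lay at -0.1939 and the lowest at -0.32. The gap was 0.627 of the group's range (Dixon's ratio), just over the critical value for 6 samples, and 28 groups of values were examined, of which chance alone is set to mark about 1 in 20. The same array had the macrophage median furthest below, and the proliferation median furthest above, those of the other invasive arrays, and the part of these in the value was not tested.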

How the results depend on the processing

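The count of 0 passing genes held with the t-test of the methods (54 of all genes), robust empirical Bayes, 3 normalisations between arrays, complete values, both other clone summaries and single clones; at the stricter threshold it could only be 0. It was 3 with unequal variances (Welch; Mrpl24, Mrpl30 and Timm44), where 207 of all genes passed, 6 with array weights (Mrps11 higher; Mrpl19, Mrpl30, Mrpl48, Mrps10 and Timm44 lower), where 1685 of all genes passed against 457, 21 against the pool (2595 of all genes), and 1 (Mrpl19) with both arrays that stand apart left out (1064 of all genes), a choice made after seeing the data. With each array left out in turn it ran from 0 to 2, the 2 being Mrpl51 and Mrps18a without invasive replicate 3, and the count over all genes ran from 37 to 896. The replicate block could use only invasive replicates 2, 3 and 4 with the PIN arrays. The count was 0 with and without the block on these 6 arrays, and 90 and 137 of all genes passed. Leaving aside the comparison with the pool and the arrays left out singly, the lowest adjusted p over settings was 0.0592 for Mrps11 (highest 0.376), 0.0730 for Timm44 (0.638), 0.0979 for Mrpl19 (0.882), 0.0995 for Mrpl30 (0.640), 0.113 for Mrps10 (0.525), 0.132 for Mrpl48 (0.708) and 0.148 for Mrpl24 (0.729).

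The median difference stayed negative throughout, from -0.18 against the pool to -0.04 with the replicate block and, on the same 6 arrays, without it, and from -0.17 to -0.07 with an array left out. The count of genes whose groups did not overlap, 5 with all arrays, cannot fall when an array is left out. It ran from 5 to 10 (10 without invasive replicate 3, 8 without PIN replicate 2 and 9 without PIN replicate 3). The share over all genes was not computed with an array left out. For the 23 named genes 6 alternatives were followed, namely the 3 normalisations between arrays, both other clone summaries and the replicate block. The Welch test and array weights, under which some of these genes passed, were not among them. Of the 138 values, 137 kept direction and side of the threshold, and Tomm20 turned to 0.032 with the median over its clones. With an array left out, 198 of 207 did so. The ranges that crossed 0 were -0.024 to 0.44 for Mrpl36, -0.45 to 0.18 for Timm17b, -0.33 to 0.0038 for Timm8a1, -0.30 to 0.050 for Tomm20, -0.010 to 0.19 for Tomm40 and -0.047 to 0.19 for Tomm5. The cause was not tested.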
